A study of Homo sapiens with 8 samples.

Results

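The genes described here encode the proteins of the mitochondrial ribosome, the machine that translates the few messages of the mitochondrial genome. They were chosen by name, as every gene whose symbol in the platform annotation is MRPL or MRPS followed by a number and at most 1 letter. This gave 74 genes, each read by 1 probe set, of 17491 genes on the arrays. The name rule itself uses no measured value. The study grew SkMel147, a human skin melanoma line, under the skin of BALB/c nude mice, an athymic strain that lacks mature T cells. The arrays were made from lymph nodes with metastases. The vehicle group (4 arrays, 1 per biological replicate) received only the vehicle in the drinking water. The doxycycline group (4 arrays) received doxycycline, meant to switch on Omomyc in the grafted cells, a dominant-negative derivative of the transcription factor MYC. Treatment began when the subcutaneous tumours had reached about 750 mm3, and the nodes were taken on day 2. The promoter that drives Omomyc, the age of the mice and whether the vehicle tumours carried the same construct are not stated in those labels. The design text speaks of melanomas, while the labels name lymph node metastases. Whole nodes were homogenised, so RNA of the mouse host and of the human tumour met the same human probes, and fewer cells of a type cannot be told apart from less RNA per cell.

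A mitochondrial ribosome has a small subunit, which holds the message and checks the pairing of codon and transfer RNA, and a large subunit, which joins the amino acids. All of its proteins are encoded in the nucleus and imported, whereas its ribosomal RNAs are encoded in mitochondrial DNA. Some of the proteins descend from those of bacterial ribosomes and others have no bacterial counterpart. Tetracyclines such as doxycycline bind bacterial ribosomes at the small subunit, and doxycycline also inhibits mitochondrial translation. MYC is known to raise the expression of many nuclear genes for mitochondria and ribosomes. The question put to the data was therefore how the messages of these 74 genes differed between the groups. With only vehicle and doxycycline arrays, an effect of doxycycline itself cannot be told apart from one of Omomyc.

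By their known place in the structure 25 of the 74 genes belong to the small subunit and 49 to the large one. MRPS30 and MRPS18A are counted in the large subunit, where their proteins sit despite their names. Expression is given as log2 values made by RMA, so a difference of 1 is a doubling. The mean value of a member over the 8 arrays ran from 2.75 for MRPS18C to 8.20 for MRPL12, with a median of 4.94. Of the members 20 lay in the dimmest 25% of all genes on the arrays and 19 in the brightest 25%. Probe sets differ in how strongly they bind, so these values do not rank the abundance of the messages.

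The array of vehicle replicate 1 stood apart from the rest. Its mean correlation with the other 7 arrays over all genes was 0.941, whereas that of the other arrays lay between 0.969 and 0.974. Correlations across genes describe the arrays, since genes are not independent replicates. The values for the members are given with and without this array where it moved them. Of the markers of melanoma and melanocytes fixed for this work, MLANA averaged 5.51 with vehicle, with 4.60 in vehicle replicate 1, and 5.94 with doxycycline (a difference of 0.43, or 0.13 without that array), and TYR 3.71 and 3.82. The 13 measured lymphocyte markers averaged between 3.21 (CD2) and 8.73 (CD79B) with vehicle.

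**Figure D1:**
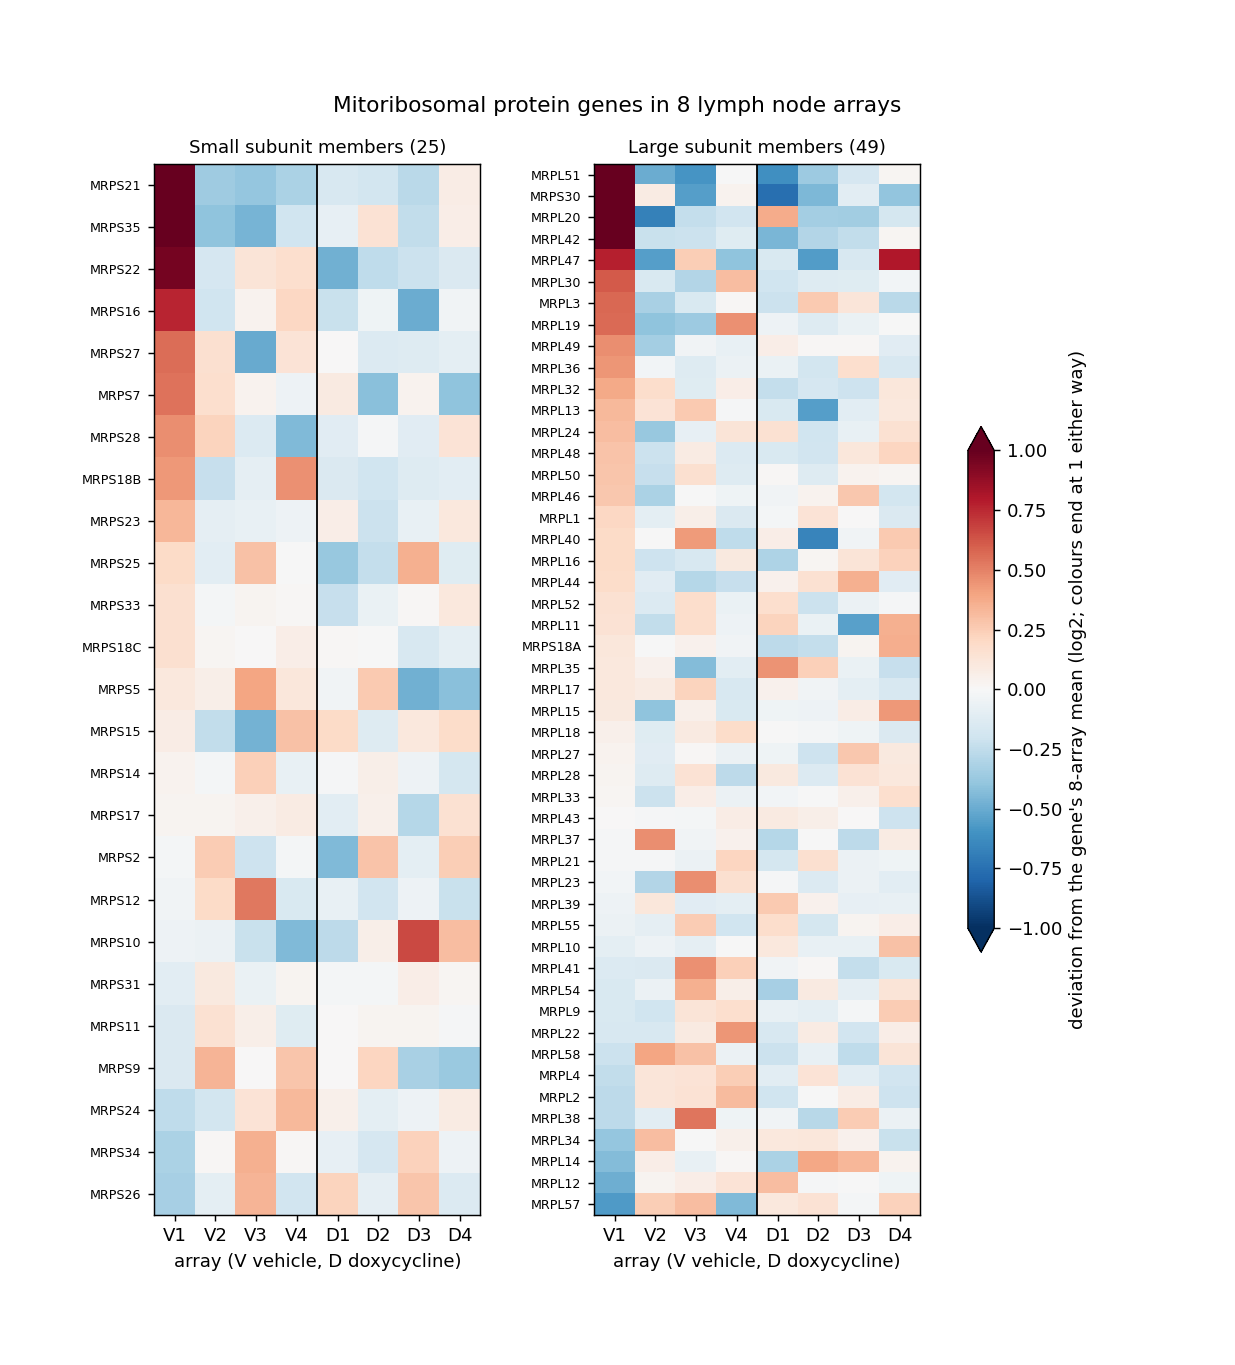
Deviation of each of the 74 members from its own mean over the 8 arrays, in log2 units, with arrays in columns (V vehicle, D doxycycline, replicates 1 to 4) and members in rows, ordered by how far vehicle replicate 1 lay above the other arrays. The first column is dark red at the top of both panels, where MRPS21 and MRPL51 exceeded the other 7 arrays by 1.83 and 2.54, and blue at the bottom, while no block of colour separates the 4 vehicle from the 4 doxycycline columns.

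None of the 74 members differed between doxycycline and vehicle at an adjusted p under 0.05. In limma, with Benjamini-Hochberg adjustment over all genes, 0 members were called and 0 genes in all (percent called 0), and the smallest adjusted p was 0.987 for members and for all genes. At an unadjusted p under 0.05 there were 2 members (2.70%), both with a value below 0 (MRPS22 and MRPL13). Of all genes 665 (3.80%) had such a p, 230 of them (1.31%) below 0. The members' share is near the background. The vehicle and doxycycline values did not overlap for 0 of the 74 members, while this was so for 2.62% of all genes. The 95% confidence interval of the difference lay between -1 and 1 for 69 of the 74 members and between -0.5 and 0.5 for 42. A change smaller than those bounds therefore remained possible for most members.

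The differences, doxycycline minus vehicle, leaned slightly below 0. The median over the members was -0.06, with quartiles of -0.19 and 0.02, beside a median of 0.02 over all genes. Of the members 52 were below 0 and 22 above 0, a share of 70.3% below 0 beside 44.5% of all genes. Without vehicle replicate 1 the median was -0.02, beside 0.0031 over all genes, and 42 members were below 0 (56.8%, beside 49.2% of all genes). Without vehicle replicate 2 it was -0.11. Members are not replicates of a condition, so these counts describe the list and carry no test.

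Without vehicle replicate 1 the median stayed below 0 in the small subunit and not in the large one. Within the small subunit it was then further below 0 for members with a bacterial counterpart (-0.10) than for those without (-0.02). The small subunit median difference was -0.09 over 25 members, 20 of them below 0, and it was -0.09 without vehicle replicate 1, with 18 below 0. Without the dimmest 50% of all genes, where 31 members of both subunits remained, the small subunit median was -0.02 and the large subunit median -0.03. The median deviation of the small subunit genes from their 8-array means was 0.11, -0.02, 0.03 and 0.01 in vehicle replicates 1 to 4. In doxycycline replicates 1 to 4 it was -0.08, -0.07, -0.07 and -0.04. These medians did not overlap between the groups, and they lay close together. Those of all genes below the members' median mean level did not overlap either (-0.069 to -0.0045 with vehicle, -0.0042 to 7.8e-05 with doxycycline). Small subunit members with a bacterial counterpart had 0.02 to 0.03 with vehicle and -0.07 to 0.01 with doxycycline. For those without one the groups overlapped, at -0.09 to 0.33 and -0.13 to -0.05. The large subunit had a median difference of -0.05 over 49 members, 32 of them below 0. Without vehicle replicate 1 it turned to 0.0096, with 24 below 0, and it was -0.11 without vehicle replicate 2, -0.01 without vehicle replicate 3 and -0.02 without doxycycline replicate 2. Its median deviation was 0.10, -0.11, 0.05 and -0.04 with vehicle and -0.04, -0.06, -0.04 and 0.02 with doxycycline, so the groups overlapped. The difference between the subunits was not tested. Among the members with a bacterial counterpart the median was -0.11 in the small subunit (14 genes) and -0.03 in the large one (30 genes). Among those without one it was -0.06 in the small (11 genes) and -0.06 in the large subunit (19 genes). Without vehicle replicate 1 these medians were, in the same order, -0.10, 0.03, -0.02 and -0.03. The members below 0 then numbered 11 of 14, 13 of 30, 7 of 11 and 11 of 19.

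In the small subunit the member with the smallest p was MRPS22, a protein with no bacterial counterpart that is mutated in some inherited mitochondrial diseases. It was at 5.26, 4.13, 4.42 and 4.47 in vehicle replicates 1 to 4 and at 3.82, 4.04, 4.08 and 4.15 in doxycycline replicates 1 to 4. Vehicle replicate 1 was the highest, and vehicle replicate 2 lay within the doxycycline range, so the groups overlapped by that 1 array. The difference was -0.55 ± 0.21 (SE), and -0.32 without vehicle replicate 1. MRPS16, which has a bacterial counterpart, was at 4.46, 3.50, 3.73 and 3.90 with vehicle and at 3.47, 3.66, 3.21 and 3.66 with doxycycline. Its difference of -0.40 ± 0.19 (SE) became -0.21 without vehicle replicate 1. MRPS7, a protein of the head of the subunit, had 4.96, 4.58, 4.45 and 4.36 with vehicle and 4.51, 4.00, 4.45 and 4.02 with doxycycline. The difference was -0.35 ± 0.17 (SE), and -0.22 without vehicle replicate 1. MRPS5, whose bacterial counterpart lies where the message enters, was at 3.47, 3.42, 3.76 and 3.48 with vehicle and at 3.33, 3.62, 2.89 and 2.95 with doxycycline. In that gene vehicle replicate 1 was not extreme, and the difference of -0.33 ± 0.17 (SE) came with 3 doxycycline arrays below every vehicle array and 1 that lay above 3 of them.

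MRPS10, another protein of the head, had the largest difference above 0 of all members. It was at 3.40, 3.39, 3.23 and 3.00 with vehicle and at 3.19, 3.50, 4.11 and 3.76 with doxycycline. Doxycycline replicates 3 and 4 were the highest, and doxycycline replicate 1 lay within the vehicle range. The difference was 0.38 ± 0.19 (SE), with a 95% confidence interval from -0.02 to 0.79. Leaving out vehicle replicate 1 gave 0.43, and leaving out doxycycline replicate 3 gave 0.23. MRPS34 and MRPS2, with high signal, were at 7.82 ± 0.27 (SD) and 7.77 ± 0.19 (SD) with vehicle. With doxycycline they were at 7.79 ± 0.17 (SD) and 7.77 ± 0.34 (SD). Of the members with the lowest signal, MRPS31 averaged 2.91 ± 0.09 (SD) in the vehicle arrays and 2.94 ± 0.04 (SD) in the doxycycline arrays, and MRPS28 averaged 3.08 ± 0.40 (SD) and 3.03 ± 0.12 (SD). MRPS12, the counterpart of the bacterial protein at the decoding centre where streptomycin resistance arises, was added to the named genes after its values were seen. It was at 5.49, 5.71, 6.05 and 5.37 with vehicle and at 5.45, 5.33, 5.47 and 5.30 with doxycycline, a difference of -0.27 ± 0.15 (SE) and of -0.32 without vehicle replicate 1.

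**Figure D2:**
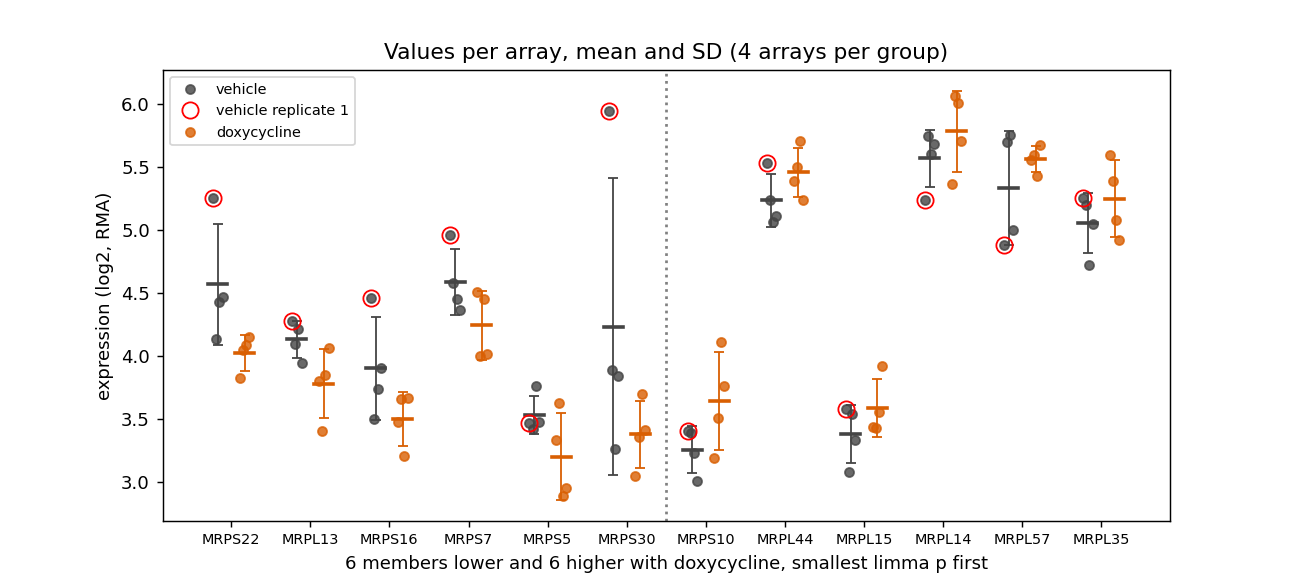
Log2 expression in each array (points), with the mean (bar) and SD (whisker) of 4 arrays per group, for the 6 members with a difference below 0 and the 6 above 0 that had the smallest limma p. Vehicle replicate 1 is ringed in red, and it is the highest array for MRPS22, MRPL13, MRPS16, MRPS7 and MRPS30, whereas it is the lowest for MRPL14 and MRPL57.

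MRPS18A, MRPS18B and MRPS18C are 3 human relatives of 1 bacterial protein. MRPS18C takes its place in the small subunit and is the one counted above as having a bacterial counterpart. MRPS18B lies elsewhere in the small subunit and MRPS18A in the large one, so both are counted among the members without one. MRPS18A was at 7.16, 7.04, 7.09 and 7.01 with vehicle and at 6.79, 6.81, 7.08 and 7.41 with doxycycline. Its doxycycline values spread on both sides of the vehicle values, and the difference was -0.06 ± 0.15 (SE), or 0.02 without doxycycline replicate 1. MRPS18B was at 5.10, 4.44, 4.58 and 5.12 with vehicle and at 4.52, 4.47, 4.54 and 4.56 with doxycycline. For that gene vehicle replicates 1 and 4 were high and the other 6 arrays were close together, with a difference of -0.29 ± 0.16 (SE), or -0.19 and -0.18 without one or the other of those arrays. MRPS18C averaged 2.81 ± 0.07 (SD) in the vehicle arrays and 2.68 ± 0.08 (SD) in the doxycycline arrays, near the bottom of the signal range. The difference was -0.13 ± 0.11 (SE).

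In the large subunit MRPL13, with a bacterial counterpart, had the smallest p. It was at 4.28, 4.10, 4.22 and 3.94 with vehicle and at 3.80, 3.40, 3.85 and 4.06 with doxycycline. Doxycycline replicate 4 lay above vehicle replicate 4, so the groups overlapped. The difference was -0.36 ± 0.15 (SE), -0.31 without vehicle replicate 1 and -0.23 without doxycycline replicate 2. MRPS30, which sits in the large subunit and has no bacterial counterpart, was at 5.95, 3.88, 3.26 and 3.84 with vehicle and at 3.05, 3.35, 3.70 and 3.41 with doxycycline. Its difference of -0.86 ± 0.44 (SE), the largest in size among the members, was -0.28 without vehicle replicate 1.

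Differences above 0 in the large subunit were smaller. MRPL44, a protein near the exit tunnel that resembles ribonuclease III, was at 5.53, 5.24, 5.06 and 5.12 with vehicle and at 5.39, 5.50, 5.71 and 5.24 with doxycycline. Vehicle replicate 1 lay within the doxycycline range and the other 3 vehicle arrays lay below it. Vehicle replicate 2 (5.2382) and doxycycline replicate 4 (5.2386) were almost tied. The difference went from 0.22 ± 0.15 (SE) to 0.32 ± 0.14 (SE) without vehicle replicate 1. It was 0.14 without doxycycline replicate 3. MRPL14, where the anti-association factor MALSU1 binds, was at 5.24, 5.75, 5.61 and 5.69 with vehicle and at 5.36, 6.06, 6.01 and 5.71 with doxycycline (0.22 ± 0.17 SE). MRPL57 was at 4.88, 5.70, 5.76 and 5.005 with vehicle and at 5.56, 5.60, 5.43 and 5.68 with doxycycline (0.23 ± 0.20 SE). The differences of MRPL14 and MRPL57 were 0.11 and 0.08 without vehicle replicate 1. When another array was dropped, that of MRPL14 reached 0.36 (doxycycline replicate 1) and that of MRPL57 0.37 (vehicle replicate 3). MRPL15 and MRPL35, both with bacterial counterparts, differed by 0.21 ± 0.16 (SE) and 0.19 ± 0.17 (SE), and without vehicle replicate 1 by 0.27 and 0.26. Dropping vehicle replicate 2 or doxycycline replicate 4 took MRPL15 to 0.10 or 0.09. That of MRPL35 was 0.08 without vehicle replicate 3 or doxycycline replicate 1 and 0.30 without doxycycline replicate 4. MRPL12, the stalk protein that recruits translation factors and has been described to bind mitochondrial RNA polymerase, was at 7.72, 8.23, 8.27 and 8.34 with vehicle and at 8.51, 8.19, 8.20 and 8.16 with doxycycline. Its groups overlapped, and the difference was 0.12 ± 0.16 (SE) with vehicle replicate 1, -0.02 without it and 0.04 without doxycycline replicate 1.

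Without vehicle replicate 1, limma again called 0 members and 0 genes (percent called 0), and 4 members had an unadjusted p under 0.05 (5.41%, beside 4.91% of all genes). They were MRPS35, MRPL44, MRPS10 and MRPS22. The 3 vehicle and 4 doxycycline arrays did not overlap for 3 members (MRPL44, MRPL2 and MRPS21), beside 5.67% of all genes. For MRPL44 this rested on the near tie given above. MRPS35, MRPL2 and MRPL42 are named here after their values were seen. MRPS35, in the small subunit, was at 5.33, 3.74, 3.68 and 3.94 with vehicle and at 4.07, 4.29, 3.90 and 4.21 with doxycycline. Its difference was -0.06 with all 8 arrays and 0.33 without vehicle replicate 1. MRPL2, whose bacterial counterpart lies beside the peptidyl transferase centre, was at 6.34, 6.72, 6.74 and 6.91 with vehicle and at 6.39, 6.59, 6.67 and 6.39 with doxycycline. For MRPL2 the array was the lowest of all, and the difference went from -0.17 to -0.28 without it.

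Vehicle replicate 1 was high for many members and low for others. It was the highest of the 8 arrays for 26 of the 74 members (35.1%, beside 15.2% of all genes) and the lowest for 12 (16.2%, beside 28.8%). It exceeded the mean of the other 7 arrays by more than 1 log2 unit for 7 members (9.46%, beside 3.43% of all genes). The median excess was 0.12 over the members and -0.11 over all genes. MRPL51, a large subunit protein, was at 6.58, 3.86, 3.77 and 4.35 with vehicle and at 3.75, 4.00, 4.19 and 4.38 with doxycycline. Its other 7 arrays lay between 3.75 and 4.38. MRPS21, in the small subunit, was at 7.65 in vehicle replicate 1 and between 5.66 and 6.12 elsewhere. MRPL20, whose bacterial counterpart acts early in assembly of the large subunit, was at 5.01 in that array, 2.74, 3.18 and 3.23 in the other vehicle arrays and 3.79, 3.08, 3.07 and 3.24 with doxycycline. MRPL42 was at 4.74 there and between 2.74 and 3.22 elsewhere. The differences between the groups were -0.56 ± 0.48 (SE) for MRPL51, -0.27 ± 0.36 (SE) for MRPS21 and -0.24 ± 0.39 (SE) for MRPL20. Without the array they turned to 0.08, 0.22 and 0.25.

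The excess went with signal level. Among the 37 members with the lower mean, vehicle replicate 1 lay above the other arrays' mean for 31, and the median excess was 0.33. Among the 37 with the higher mean it lay above for 16, with a median of -0.02. All genes below the members' median level had a median excess of -0.08, and those at or above it -0.14. The lowest excess values among members belonged to MRPL57 (-0.65), MRPL12 (-0.55) and MRPL14 (-0.50). The dimmer members had a median group difference of -0.13 with all arrays and -0.05 without vehicle replicate 1, and the brighter members -0.01 and -0.02.

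The promoters of the members were then read from RefSeq (GRCh38.p14) in windows from 250 bases before to 50 bases from the transcription start. Of the 74 members 66 had a window, 82 windows in all, and 8 had none in the table used. Both strands were searched, and the search was chosen with the differences known. The E-box CACGTG, the site of MYC and MAX, was in 8 of the 82 windows (9.76%), beside 7.26% of all 35116 windows. The letters CCGGAAG, bound by ETS factors such as GABPA, were in 32 (39.0%), beside 10.3%. The NRF1 motif (GCGC, any base, then TGCGC) was in 9 (11.0%), beside 5.78%. The letters AAGATGGC, bound by YY1, were in 22 (26.8%), beside 2.89%, and no window held them overlapping the ETS letters. AAGATGGC contains the triplet ATG and can coincide with a start codon. TATAAA was in 3 (3.66%), beside 11.5%. Over only the genes of the array the shares were 8.22%, 12.8%, 7.61%, 3.58% and 9.26%.

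Shown are 180 bases, from 150 before the start to 30 from it, for the members whose values the account turns on. Capitals mark any of the 5 searched motifs on either strand. MRPL51, MRPS30, MRPL20 and MRPS21 were the members highest in vehicle replicate 1.
MRPL51, chr12:6493233-6493412, minus strand: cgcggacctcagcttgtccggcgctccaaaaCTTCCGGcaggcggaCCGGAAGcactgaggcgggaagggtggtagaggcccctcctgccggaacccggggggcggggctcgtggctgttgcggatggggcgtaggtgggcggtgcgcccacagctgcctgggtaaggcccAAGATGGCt
MRPS30, chr5:44808797-44808976, plus strand: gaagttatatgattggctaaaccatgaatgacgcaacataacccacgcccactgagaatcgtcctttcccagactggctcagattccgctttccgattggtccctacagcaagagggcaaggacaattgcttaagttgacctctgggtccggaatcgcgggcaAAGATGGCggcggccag
MRPL20, chr1:1407264-1407443, minus strand: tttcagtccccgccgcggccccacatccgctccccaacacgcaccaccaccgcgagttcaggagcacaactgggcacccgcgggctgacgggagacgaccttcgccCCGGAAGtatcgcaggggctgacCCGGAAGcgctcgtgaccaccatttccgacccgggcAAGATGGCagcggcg
MRPS21, chr1:150293711-150293890, plus strand: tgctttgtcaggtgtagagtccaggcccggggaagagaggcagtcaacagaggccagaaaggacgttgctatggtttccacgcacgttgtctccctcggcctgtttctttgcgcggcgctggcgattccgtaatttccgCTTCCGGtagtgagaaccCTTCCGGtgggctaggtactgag
MRPL57 and MRPL12 were the members lowest in that array. MRPS22 had the smallest p of all members, and MRPL44 the smallest p above 0 in the large subunit.
MRPL57, chr13:21176508-21176687, plus strand: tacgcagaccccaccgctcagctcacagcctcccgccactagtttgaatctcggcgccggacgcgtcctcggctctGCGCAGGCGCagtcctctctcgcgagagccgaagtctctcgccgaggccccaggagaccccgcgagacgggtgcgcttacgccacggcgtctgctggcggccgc
MRPL12, chr17:81703217-81703396, plus strand: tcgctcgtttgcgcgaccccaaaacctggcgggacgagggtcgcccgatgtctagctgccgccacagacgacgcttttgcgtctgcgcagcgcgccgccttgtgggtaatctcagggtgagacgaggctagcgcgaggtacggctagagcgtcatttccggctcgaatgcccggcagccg
MRPS22, chr3:139343844-139344023, plus strand: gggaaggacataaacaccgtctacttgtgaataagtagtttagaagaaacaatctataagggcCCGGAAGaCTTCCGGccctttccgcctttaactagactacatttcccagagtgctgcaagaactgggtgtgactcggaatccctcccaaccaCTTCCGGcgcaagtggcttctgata
MRPL44, chr2:223957313-223957492, plus strand: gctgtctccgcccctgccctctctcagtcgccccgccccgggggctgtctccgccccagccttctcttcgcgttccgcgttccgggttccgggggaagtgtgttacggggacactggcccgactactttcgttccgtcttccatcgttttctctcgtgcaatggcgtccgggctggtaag
MRPL51, MRPS30 and MRPL20 held the YY1 letters just after the start, MRPS21 and MRPS22 only ETS letters, and MRPL57 a match to the NRF1 motif. In the printed part of MRPL12 and MRPL44 none of the 5 motifs was found, which says only that these letters are not in that stretch.

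The 8 members with an E-box had a median difference of -0.10, 7 of them below 0, and the 58 without one -0.06, with 40 below 0. Without vehicle replicate 1 the medians were -0.03 and -0.02. The 20 members with the YY1 letters had a median difference of -0.11, 18 of them below 0, and the 46 without -0.04, with 29 below 0. Without vehicle replicate 1 these were -0.03, with 12 below 0, and -0.02. The 8 members with the NRF1 motif had a median difference of -0.11, 5 of them below 0, and the 58 without -0.06. Without vehicle replicate 1 these were -0.06 and -0.02. For the ETS letters the medians were -0.06 with and -0.06 without, and -0.02 and -0.02 without that array. For TATAAA, in 3 members, they were -0.10 and -0.06, and -0.10 and -0.02 without that array. The median excess in vehicle replicate 1 was 0.46 with the YY1 letters and 0.04 without. It was 0.62 and 0.22 among the dimmer members and 0.17 and -0.06 among the brighter ones. For the ETS letters the same excess was 0.17 in 29 members with and 0.12 in 37 without. Among the dimmer members it was 0.22 with the ETS letters and 0.39 without, and among the brighter ones 0.02 and -0.06. For the NRF1 motif it was -0.03 in 8 members with and 0.15 in 58 without, for the E-box 0.08 and 0.12, and for TATAAA 0.06 and 0.17. A match is a description of the sequence, and no difference between members with and without a motif was tested.

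Other genes that serve mitochondrial translation were described from lists. In every list named here 0 genes passed at an adjusted p under 0.05 (limma). Of 4 measured subunits whose symbols fall outside the name rule all were below 0, namely CHCHD1 (-0.21 ± 0.12 SE), DAP3 (-0.13 ± 0.15 SE), PTCD3 (-0.13 ± 0.15 SE) and GADD45GIP1 (-0.00972 ± 0.13 SE). Leaving out vehicle replicate 1 gave -0.16, -0.03, -0.03 and -0.10. The 23 measured assembly factors had a median of 0.09, with 13 above 0, and of 0.01 without vehicle replicate 1. MTG1, a GTPase of large subunit assembly, had the smallest p above 0 (0.26 ± 0.14 SE), and METTL17, needed for the small subunit, the smallest below 0 (-0.32 ± 0.25 SE). The 15 measured translation factors had a median of -0.06, which was 0.05 without vehicle replicate 1. Among them MTIF2, the initiation factor that brings in the first transfer RNA, differed by -0.37 ± 0.30 (SE), with 4.61 in vehicle replicate 1 and 2.90 to 3.51 elsewhere, and by -0.0026 without that array. TACO1, a translational activator of cytochrome c oxidase, differed by 0.30 ± 0.18 (SE). The 18 measured mitochondrial aminoacyl-tRNA synthetase and related genes had a median of 0.01, and of 0.0036 without vehicle replicate 1. GATC, part of the enzyme that makes glutamine-charged transfer RNA, was at 6.05, 5.92, 6.46 and 6.16 with vehicle and at 5.67, 5.82, 5.60 and 5.71 with doxycycline. Its groups did not overlap, and the difference was -0.45 ± 0.14 (SE), with a limma adjusted p of 0.987. QRSL1, another part of that enzyme, differed by 0.24 ± 0.18 (SE). The groups did not overlap for 1 of these 18 genes (GATC) and for 1 of the 23 assembly factors (NSUN4, 0.22 ± 0.12 SE), beside 2.62% of all genes.

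Regulators of mitochondrial gene expression had a median of -0.07 over 14 measured genes, 12 of them below 0, and -0.09 without vehicle replicate 1. SSBP1, the single-strand binding protein of mitochondrial DNA, differed by -0.42 ± 0.20 (SE), or -0.20 without vehicle replicate 1, and POLRMT, the mitochondrial RNA polymerase, by 0.14 ± 0.13 (SE), or 0.06 without that array. MYC was at 6.08, 6.31, 5.57 and 6.22 with vehicle and at 5.77, 5.52, 5.75 and 5.76 with doxycycline, so that vehicle replicate 3 lay within the doxycycline range. The mitochondrial stress response list had a median of -0.06 over 21 genes, and -0.00415 without vehicle replicate 1. ATF4, its central transcription factor, was at 6.45, 5.90, 5.65 and 5.90 with vehicle and at 5.38, 5.73, 5.56 and 5.67 with doxycycline (-0.39 ± 0.17 SE). Its difference was -0.23 without vehicle replicate 1. SESN2, a stress-induced regulator of growth signalling, differed by 0.27 ± 0.14 (SE). The 13 genes encoded in mitochondrial DNA were not analysed here.

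**Figure D3:**
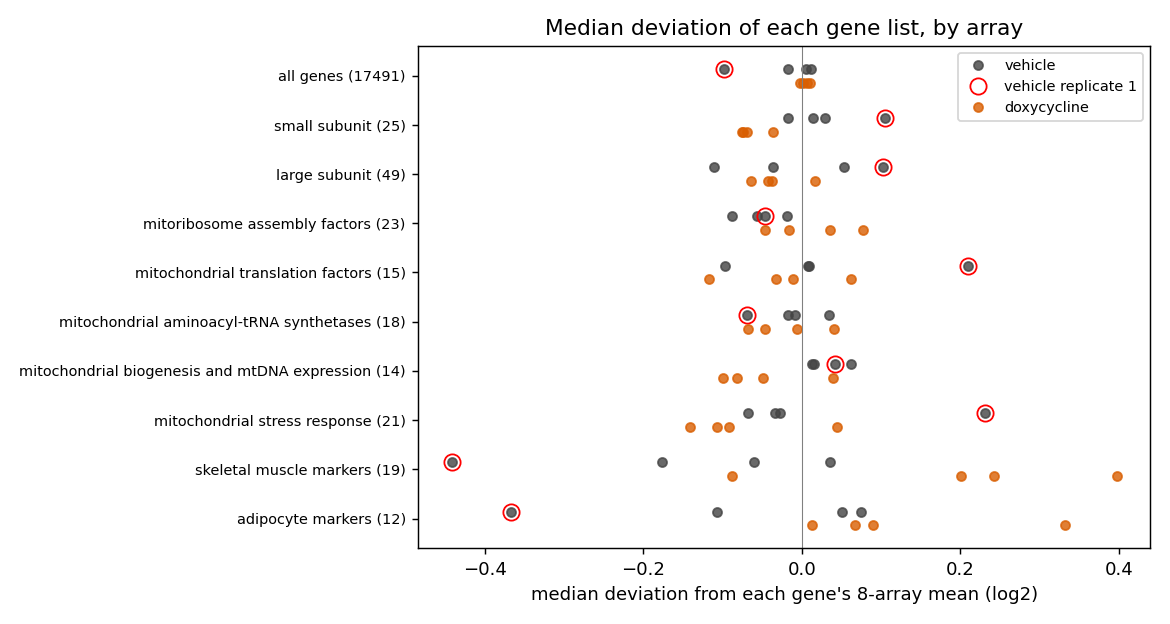
Median deviation of each gene list from its genes' 8-array means (log2, horizontal), 1 point per array, with vehicle in grey, doxycycline in orange and vehicle replicate 1 ringed in red. The small subunit points lie between -0.02 and 0.11 with vehicle and between -0.08 and -0.04 with doxycycline, and the skeletal muscle markers run from -0.44 in vehicle replicate 1 to 0.40 in doxycycline replicate 1.

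The nodes also held host tissue, and its markers were read on the same arrays, where 0 of them passed an adjusted p under 0.05 (limma). Of 19 measured skeletal muscle markers 18 were above 0, with a median difference of 0.43, and 0.29 without vehicle replicate 1. An unadjusted p under 0.05 was found for 6 of them (31.6%, beside 3.80% of all genes), and for 0 did the groups not overlap. The sum of their linear values ran from 1720 to 2366 with vehicle and from 1985 to 3109 with doxycycline. DES, the muscle intermediate filament gene, differed by 0.61 ± 0.19 (SE), and TNNT1, a slow muscle troponin, by -0.13 ± 0.13 (SE). Of 12 measured adipocyte markers 9 were above 0, with a median of 0.20, and of 0.12 without vehicle replicate 1. An unadjusted p under 0.05 was found for 3 of the 12, and the groups did not overlap for 3, beside 2.62% of all genes. Their summed values ran from 888 to 1239 with vehicle and from 1156 to 1410 with doxycycline. Among them FABP4, the fatty acid carrier, differed by 0.58 ± 0.13 (SE) and PLIN1, a lipid droplet coat protein, by -0.13 ± 0.16 (SE), or -0.25 without vehicle replicate 1. Vehicle replicate 1 lay below the other arrays' mean for all 19 muscle and all 12 adipocyte markers, beside 11424 of all 17491 genes. It also lay below for 11 of 13 lymphocyte, 8 of 11 macrophage and granulocyte and 8 of 10 endothelial markers. The counts were 5 of 8 for fibroblast and 5 of 10 for melanoma and melanocyte markers. Of 13 lymphocyte markers 7 were above 0 (median 0.00822), with sums from 912 to 1134 and from 933 to 1118, CR2 at 0.21 ± 0.12 (SE) and CD3D at -0.21 ± 0.19 (SE). Of 11 macrophage and granulocyte markers 7 were above 0 (median 0.01), with sums from 577 to 607 and from 573 to 665, CD163 at 0.29 ± 0.12 (SE) and S100A8 at -0.11 ± 0.17 (SE). Of 8 fibroblast markers 6 were above 0 (median 0.10), with sums from 1202 to 1454 and from 1270 to 1504, PDGFRA at 0.36 ± 0.14 (SE) and LUM at -0.12 ± 0.16 (SE). Of 10 endothelial markers 6 were above 0 (median 0.06), with sums from 631 to 769 and from 661 to 708, TEK at 0.50 ± 0.16 (SE) and PROX1 at -0.17 ± 0.16 (SE). Of 10 melanoma and melanocyte markers 7 were above 0 (median 0.06), with sums from 555 to 577 and from 555 to 597, MLANA at 0.43 ± 0.25 (SE) and EGFR at -0.16 ± 0.13 (SE). None of these markers was at 0, but the lowest mean of any gene over the 8 arrays was 2.43, and signal over background was not assessed. When vehicle replicate 1 was left out the medians of the lymphocyte, macrophage, fibroblast, endothelial and melanoma lists were -0.05, -0.01, 0.11, -0.01 and 0.10, LUM was at -0.08 and EGFR at -0.10. With all 8 arrays an unadjusted p under 0.05 (limma) was found for 0, 1, 1, 1 and 0 of their genes. Without vehicle replicate 1 it was found for 0, 0, 1, 1 and 0. Over all genes the shares were 3.80% and 4.91%. The part of these tissues in the members' values was not tested. Over the 8 arrays the summed linear signal of the 74 members ran from 3794 to 4161 with vehicle and from 3743 to 3908 with doxycycline.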

How the data were processed

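The deposited log2 values, given per probe set and array, were made by the authors with RMA, per the submitters' processing notes. RMA corrects background, makes the arrays' distributions alike and summarises probes, so a change in total human RNA would appear as relative changes. The version, build and scan dates were not given in the sources used here. No batch could be tested. The 18565 probe sets comprised 17509 with a single gene symbol and 1056 with none. The highest-mean probe set was kept for the 16 genes with several, which left 17491 genes. All 17509 gene identifiers matched RefSeq.

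Differences were fitted in limma 3.58.1 (R 4.3.3, data.table version 1.17.8; lmFit, eBayes, two-sided) without covariates. P-values were adjusted by Benjamini and Hochberg across the 17491 genes, and 0.05 was the threshold. The fit was tested on simulated data. Plots used matplotlib 3.10.9 and sequence searches pandas 2.3.3. The labels call the arrays biological replicas. Precision is limited by there being 4 arrays per group.

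The members and lists were chosen with earlier results of these data known. Named were the 6 members with the smallest p in each direction, members without overlap, those with the 3 highest and lowest means, the 3 widest ranges, the 3 highest and lowest values of vehicle replicate 1 against the other arrays, the MRPS18 genes and MRPS30, and in each list the smallest p in each direction. MRPS12, MRPS35, MRPL2, MRPL42, CD79B, CD2, TYR, NSUN4, DAP3, PTCD3 and GADD45GIP1 were added after their values were seen. The choices varied were a block on replicate number, centring, cyclic loess or quantile normalization, leaving out the dimmest 25% or 50% of genes, averaging probe sets, a trended robust prior, array weights, each array left out, and a threshold of 0.1.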

Additional observations from a re-analysis of the deposited data

Results flagged for a closer look

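In groups of 4 arrays 1 value was marked when its gap to the nearest other array exceeded Dixon's 95% critical value as a share of the group's range. Of 52 group and result pairs tested 4 met this. MRPL42 and MRPS35, both far higher in vehicle replicate 1 than in the other vehicle arrays, were not among those pairs. Chance alone marks about 1 in 20 groups taken without regard to their values, but some members were named for wide or extreme values, so that rate does not hold for them. MRPS21, named for its high value in that array, was at 7.65 in vehicle replicate 1, far above the other 3 vehicle arrays. MRPS5 was at 3.76 in vehicle replicate 3, above the other 3. MRPL12 was at 8.51 in doxycycline replicate 1, above the other 3. The median deviation of the small subunit members was -0.036 in doxycycline replicate 4, above the other 3 doxycycline arrays, which lay between -0.075 and -0.069.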

How the results depend on the processing

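Under each alternative that was run limma called 0 members and 0 genes in all, with 0 to 4 members and 328 to 998 genes at an unadjusted p under 0.05. The median difference of the members stayed below 0 in all of them (-0.11 to -0.02), as did that of the small subunit (-0.13 to -0.02), which moved to -0.021 without the dimmest 50% of genes, where 31 members remained. That of the large subunit lay between -0.11 and 0.0096 and was above 0 only without vehicle replicate 1. With each array left out in turn the member median ran from -0.11 to -0.02 and the small subunit median from -0.13 to -0.09. With the replicate number as a block 0 members were called, and the member median was -0.06. Same-numbered arrays deviated from their group means with correlations of -0.05, 0.15, 0.09 and 0.003, low values that do not exclude a pairing. Vehicle replicates 2 and 3 matched best the doxycycline array of their own number, and replicates 1 and 4 matched best numbers 4 and 2. The block gave 3 members and 734 genes at an unadjusted p under 0.05 (limma), beside 2 and 665 without it. Of 23 named members 14 kept their sign wherever they were fitted. The others turned sign as follows. Quantile normalization gave MRPS31 -0.008. Array weights gave MRPS28 0.071 and MRPL20 0.008. Without vehicle replicate 1 the values were MRPL12 -0.017, MRPS31 -0.0062, MRPS28 0.097, MRPL51 0.084, MRPL20 0.25 and MRPS21 0.22. Over all arrays left out in turn they lay -0.017 and 0.19 for MRPL12, -0.0062 and 0.062 for MRPS31, -0.21 and 0.097 for MRPS28, -0.85 and 0.084 for MRPL51, -0.51 and 0.25 for MRPL20, and -0.45 and 0.22 for MRPS21. MRPS28 also turned without vehicle replicate 2 (0.013). MRPS34 (-0.15 to 0.078) turned without vehicle replicate 3 or doxycycline replicate 2. MRPS2 (-0.099 to 0.14) turned without vehicle replicate 2, doxycycline replicate 1 or doxycycline replicate 3. MRPS18A (-0.19 to 0.022) turned without doxycycline replicate 1 or 2. Signal over background was not assessed, which limits the dim members most.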
